A study of Mus musculus with 18 samples.

Results

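The comparison set 6 arrays of the mouse epiblast stem cell lines NT.1 and NT.2, derived from nuclear transfer embryos, against 9 arrays of FT.1 to FT.3, the lines derived from fertilized embryos. These are 15 of the 18 arrays and 5 of the 6 lines of the study, chosen by the titles of the samples. The line NT-LE was left out because the labels set its embryo apart by an unusual morphology. Each line had 3 biological repeats, with 1 Illumina bead array for each. The question was how expression differs between lines of the 2 origins.

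All 5 lines were of strain B6D2 and came from morphologically normal embryos at the pre-streak or early streak stage. They grew without treatment on serum-coated dishes in Completely Defined Medium to which activin A and basic FGF had been added. The labels do not name the somatic cell that gave the nucleus. According to the labels a line comes from the epiblast of a single embryo, so the line was taken as the replicate of origin and the repeats of a line were averaged. There were therefore 3 FT values and 2 NT values for each probe, and a test of NT.1 or NT.2 alone assumes that this line varies like the FT lines. The arrays measure RNA of whole cultures, in which fewer cells of a type and less RNA per cell cannot be told apart.

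Epiblast stem cells are pluripotent cells of the post-implantation embryo that depend on activin and FGF signals. In somatic cell nuclear transfer the nucleus of a body cell is placed in an egg without its own nucleus and has to be reset to an embryonic state. Imprinted genes are expressed from only the maternal or only the paternal copy, according to DNA methylation set in the germ line, and this mark is normally kept in the cells of the embryo.

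Imprinted genes expressed from the paternal copy gave the largest falls among genes that passed in NT.2, but most genes that passed were not listed as such. They were 6 of the 59 genes with a probe that fell in NT.2 and 1 of the 4 in NT.1. Zdbf2 was at background in both NT lines and clearly expressed in all FT lines. Snurf, Peg3, Mest, Ndn and Mkrn3 were at background in NT.2 but not in NT.1. The RefSeq promoters of 4 of these genes are printed here because imprinted promoters are often rich in CpG, the dinucleotide that carries the methylation. Each window runs from 250 bases before to 50 bases after a transcription start, 5′ to 3′ on the strand of the gene in build GRCm38.p6, with CpG in capitals.
Zdbf2: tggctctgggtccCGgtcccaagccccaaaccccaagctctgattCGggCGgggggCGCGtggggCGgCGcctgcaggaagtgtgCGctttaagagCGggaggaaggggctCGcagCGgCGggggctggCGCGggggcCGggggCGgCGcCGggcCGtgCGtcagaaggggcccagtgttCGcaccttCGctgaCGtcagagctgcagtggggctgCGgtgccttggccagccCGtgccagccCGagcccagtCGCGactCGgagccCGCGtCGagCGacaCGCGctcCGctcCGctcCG
Snurf: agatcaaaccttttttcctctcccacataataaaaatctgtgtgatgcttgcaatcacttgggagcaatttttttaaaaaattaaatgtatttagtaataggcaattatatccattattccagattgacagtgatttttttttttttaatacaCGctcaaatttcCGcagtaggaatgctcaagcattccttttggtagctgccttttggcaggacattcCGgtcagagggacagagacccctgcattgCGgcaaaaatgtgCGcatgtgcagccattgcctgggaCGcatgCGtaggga
Peg3: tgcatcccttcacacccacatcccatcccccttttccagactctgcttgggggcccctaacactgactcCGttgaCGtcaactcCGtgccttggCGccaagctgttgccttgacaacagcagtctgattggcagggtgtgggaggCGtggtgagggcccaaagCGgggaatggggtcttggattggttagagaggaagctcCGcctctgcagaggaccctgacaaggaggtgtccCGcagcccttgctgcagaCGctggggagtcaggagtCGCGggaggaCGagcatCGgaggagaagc
Mest: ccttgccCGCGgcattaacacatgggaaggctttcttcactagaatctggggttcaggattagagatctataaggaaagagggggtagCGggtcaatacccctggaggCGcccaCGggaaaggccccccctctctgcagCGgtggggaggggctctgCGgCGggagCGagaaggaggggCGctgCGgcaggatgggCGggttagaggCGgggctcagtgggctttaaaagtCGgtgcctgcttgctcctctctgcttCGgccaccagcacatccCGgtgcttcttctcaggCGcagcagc
The Zdbf2 window lies at chr1:63273019-63273318 on the plus strand and holds 38 CpG, a number reached by 4.95% of the 32851 mouse promoters listed. The Snurf window, chr7:60005150-60005449 on the minus strand, holds 7, which 52.1% of promoters reach. For Peg3, at chr7:6730370-6730669 on the minus strand, the number is 13 (37.9% of promoters). The Mest window, chr6:30737800-30738099 on the plus strand, holds 17 (31.4%). RefSeq lists 2 starts for Zdbf2 and 3 for Mest. For these the window with the most CpG is shown, a choice that raises their count and lowers the share of promoters that reach it. The median over all promoters is 7. These counts describe the windows only, since the arrays measured RNA and not methylation.

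Zdbf2, a paternally expressed gene for a zinc finger protein, was the only probe of 17778 tested that passed when both NT lines were set against the FT lines (limma on line means, Benjamini-Hochberg adjusted p under 0.05; 0.00562% of probes). On the log2 scale of the normalized intensity it read 9.93, 9.91 and 9.83 on the FT.1 arrays, 10.33, 10.11 and 10.18 on the FT.2 arrays, and 9.93, 10.29 and 10.22 on the FT.3 arrays. It read 7.08, 6.84 and 6.84 in NT.1 and 6.87, 6.89 and 6.94 in NT.2. All 9 FT arrays were above background and far above the 6 NT arrays, none of which was above background. The means were 10.08 ± 0.17 (SD, n = 3 lines) and 6.91 ± 0.016 (SD, n = 2 lines), so Zdbf2 fell by 3.17 on the log2 scale (SE 0.11, limma adjusted p = 0.0017). Because the NT arrays give only a bound, this is at least a 7.41-fold lower level. The bound sets the mean of the bright lines against, on each dim array, the higher of the probe's own signal and the lowest signal counted as above background. Zdbf2 also passed for NT.1 alone (-3.16, adjusted p = 0.009) and for NT.2 alone (-3.18, adjusted p = 0.0024, both limma), 2 tests that share the FT lines. The NT.1 call was lost with the authors' processed values (-2.11, limma adjusted p = 0.075) and without FT.2.

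No probe passed as higher in both NT lines. Before adjustment, limma's p was under 0.05 for 754 probes on the high side and 800 on the low side, and with lines as a random block 67 passed as higher and 148 as lower. With the spread taken between repeats of a line in place of that between lines, 3016 probes passed (17.0%), a count that treats any stable difference between lines as one of origin. By array, without a test, there were 257 probes (1.45%) whose 6 NT arrays lay wholly to 1 side of the 9 FT arrays, 95 above and 162 below. Of these, 24 (0.135%) differed at least 2-fold.

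**Figure D1:**
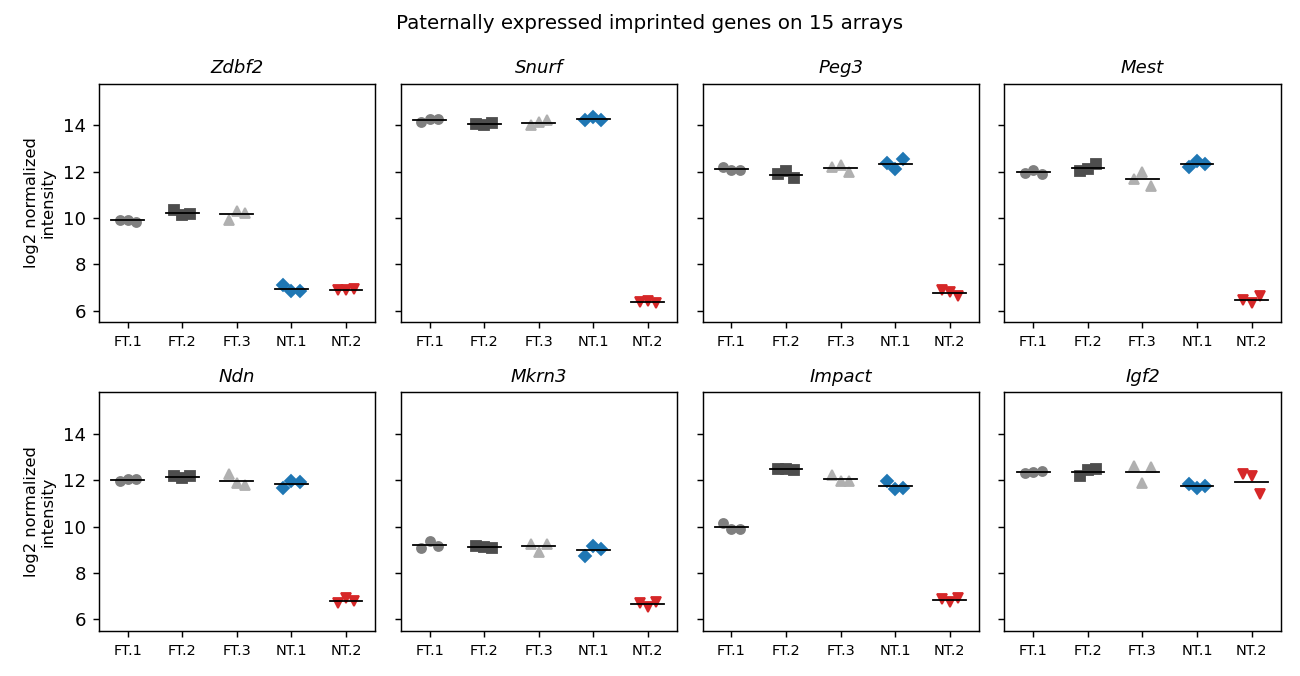
Log2 normalized intensity (vertical axis) of 8 paternally expressed imprinted genes on the 15 arrays by line (horizontal axis). Each point is an array and each bar the mean of a line. Zdbf2 lies near 6.9 in both NT lines and near 10 in the FT lines, while Snurf, Peg3, Mest, Ndn, Mkrn3 and Impact lie below 7 in NT.2 only.

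Snurf, which fell most among the genes named for NT.2, lies in the region of mouse chromosome 7 that corresponds to the human Prader-Willi region. It shares its transcript with Snrpn, a gene for a splicing protein, and the array annotation gives Snrpn no probe of its own. Its brightest probe read 14.15, 14.29 and 14.27 in FT.1, 14.06, 14.00 and 14.12 in FT.2, and 14.00, 14.14 and 14.23 in FT.3. It read 14.23, 14.35 and 14.23 in NT.1 but 6.36, 6.39 and 6.31 in NT.2. The 3 NT.2 arrays were at background and the other 12 were among the bright signals of the array. Against the FT mean of 14.14 ± 0.09 (SD, n = 3 lines) Snurf fell by 7.79 in NT.2 (SE 0.11, limma adjusted p = 7.8e-05), at least 123-fold. All 3 of its probes passed.

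Ndn, which encodes necdin, and Mkrn3, which encodes a ring finger protein, lie in the same region. Ndn read 11.65, 11.96 and 11.91 in NT.1 and 6.70, 6.93 and 6.81 in NT.2, against 11.79 to 12.26 over the 9 FT arrays. It fell by 5.24 in NT.2 (SE 0.11, limma adjusted p = 0.00023), at least 28.9-fold. Mkrn3, chosen after its values were seen, read 8.74, 9.15 and 9.03 in NT.1 and 6.71, 6.52 and 6.75 in NT.2, with FT arrays between 8.92 and 9.37. It fell by 2.50 in NT.2 (SE 0.096, limma adjusted p = 0.0011), at least 3.89-fold. In both genes the NT.2 arrays lay at background, below all other arrays. Magel2, a further gene of the region, was above background in no line.

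Peg3 and Mest lie elsewhere in the genome. Peg3, a zinc finger gene, read 12.36, 12.11 and 12.55 in NT.1 and 6.89, 6.80 and 6.63 in NT.2, against 11.71 to 12.29 in FT. It fell by 5.28 in NT.2 (SE 0.14, limma adjusted p = 0.00043), at least 28.8-fold. Of its 3 probes, the dimmest differed by -0.42 and did not pass. Mest, which encodes a hydrolase-like membrane protein, read 12.20, 12.48 and 12.33 in NT.1 and 6.44, 6.32 and 6.62 in NT.2, against 11.37 to 12.34 in FT. It fell by 5.48 in NT.2 (SE 0.19, limma adjusted p = 0.00092), at least 26.7-fold, and all 3 probes passed. NT.1 showed neither loss, with differences from FT of 0.29 for Peg3 and 0.40 for Mest.

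The difference between the NT lines was itself tested. The spread in this test came from the FT lines alone, since the repeats of NT.1 and of NT.2 were averaged to a mean per line. NT.2 minus NT.1 came to -7.91 for Snurf, -5.87 for Mest, -5.57 for Peg3, -5.03 for Ndn and -2.32 for Mkrn3, all past the threshold in limma. For Impact it was -4.92, which did not pass (adjusted p = 0.39).

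Impact, which encodes a regulator of the translation kinase GCN2, varied among the FT lines. It read 10.17, 9.91 and 9.89 in FT.1, 12.51, 12.47 and 12.43 in FT.2, and 12.24, 11.97 and 11.97 in FT.3. NT.1 gave 11.96, 11.64 and 11.67, within the range of the FT arrays, and NT.2 gave 6.86, 6.73 and 6.94, at background. The difference of -4.67 in NT.2 did not pass against the spread of the FT lines (limma adjusted p = 0.19). Igf2, a fetal growth factor, differed by -0.51 over both NT lines and did not pass (limma adjusted p = 0.49).

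Of 30 genes listed as paternally expressed, 26 had a probe and 13 were above background in at least 1 line. Those 13 passed the filter partly through the lines in which they are bright. Zdbf2, Snurf, Mest, Peg3, Ndn and Mkrn3 were at background on the NT.2 arrays, so they entered the tests only through other lines. In NT.2 these could only be called lower. Snurf, Ndn and Mkrn3 lie in the same region, so the genes counted next are not all separate loci. In limma's test 6 of the 13 fell in NT.2 and none rose, where 46 of all 9981 genes fell (0.461%) and 3 rose (0.0301%). In NT.1 the count was 1 lower, Zdbf2, with 0.0401% of all genes, and over both lines it was Zdbf2 again, with 0.0100%. The median difference of the 13 was 0.11 in NT.1 and -2.5 in NT.2, beside 0.0024 and 0.017 over all genes tested. Dlk1 and Inpp5f stayed above background in NT.2, with differences of 0.48 and -0.60 that did not pass. Peg10, dim in all lines, was above background on no NT.2 array, and its difference of -0.83 did not pass (limma adjusted p = 0.085).

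Maternally expressed genes gave 0 of 16 tested in each comparison. Of all genes 0.0100% passed over both lines, 0.0701% in NT.1 and 0.491% in NT.2, so this count does not set the list apart. Their median difference was 0.036 in NT.1 and 0.23 in NT.2, beside 0.0024 and 0.017 over all genes tested. Cdkn1c, an inhibitor of the cell cycle, read between 6.49 and 6.73 in NT.1 and between 8.56 and 8.72 in NT.2, with FT arrays from 7.05 to 7.92. NT.1 lay below and NT.2 above all FT arrays, and neither difference passed (-0.86 and 1.18, limma adjusted p = 0.95 and 0.24). Dnmt1, Uhrf1 and Dnmt3b, which maintain or set DNA methylation, differed by 0.14, 0.16 and 0.09 in NT.2. None of the 12 genes tested in that list passed, a count that at the shares above does not set it apart either.

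Beyond imprinted genes, the genes named next had all 6 NT arrays below or above all 9 FT arrays. With both NT lines set against FT they did not pass in limma (adjusted p = 0.21 to 0.62), though some passed for NT.1 or NT.2 alone. Nmral1, a sensor of the NADPH level, read 11.48, 11.49 and 11.50 in FT.1, 10.18, 10.13 and 10.23 in FT.2, and 10.76, 10.69 and 10.97 in FT.3. It read 8.33, 8.21 and 7.89 in NT.1 and 6.79, 6.84 and 6.87 in NT.2. The lines differed from each other within both origins, and the difference was -3.34 (SE 0.49). Stmn2, a regulator of microtubules in neurons, differed by -2.31 (SE 0.22), with FT arrays from 9.73 to 10.58 and NT arrays from 7.24 to 8.18.

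Further genes on the low side were Krt19, a keratin of simple epithelia (-2.15), Akr1b10, an aldo-keto reductase (-2.14), and St14, the membrane protease matriptase (-2.01). For these 3 the NT lines were unequal: Krt19 and St14 were lower in NT.2 and Akr1b10 in NT.1. Mgp, an inhibitor of calcification, and Gpx7, a peroxidase, were above background on no NT array and at least 2.31-fold and 2.18-fold lower. Gpx7 itself ranged from 7.13 to 9.78 over the FT arrays. Zfp36, which destabilises mRNA (-1.66), Pdgfrl (-1.46), Car4, a carbonic anhydrase (-1.39), and Fgf10, a growth factor (-1.33), were the others.

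On the high side stood Hexa and Gusb, which encode lysosomal enzymes. Hexa read 9.66, 9.54 and 9.49 in FT.1, 9.49, 9.57 and 9.68 in FT.2, and 7.39, 7.42 and 7.22 in FT.3. NT.1 read 9.78, 9.69 and 9.76 and NT.2 read 10.72, 10.63 and 10.76. NT.1 thus lay just above FT.1 and FT.2, and the difference of 1.40 (SE 0.72) rested in part on the low FT.3. Without FT.3 it was 0.65. Gusb differed by 1.34 (SE 0.34), and its other 2 probes differed in the same direction, by 0.54 and 0.70. Acta1, the skeletal muscle actin, differed by 1.24, and Sgip1, a protein of endocytosis, by 1.03. The others, from 0.91 down to 0.47, were Scarf2, Ehd3, Dtx4, Stk35, Pla2g6, Dcpp3, Cyria and Serpinh1, the collagen chaperone. The difference of Ehd3 was 0.64 with all lines and 0.24 without FT.1, its lowest FT line. Dcpp3 was above background on no FT array.

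**Figure D2:**
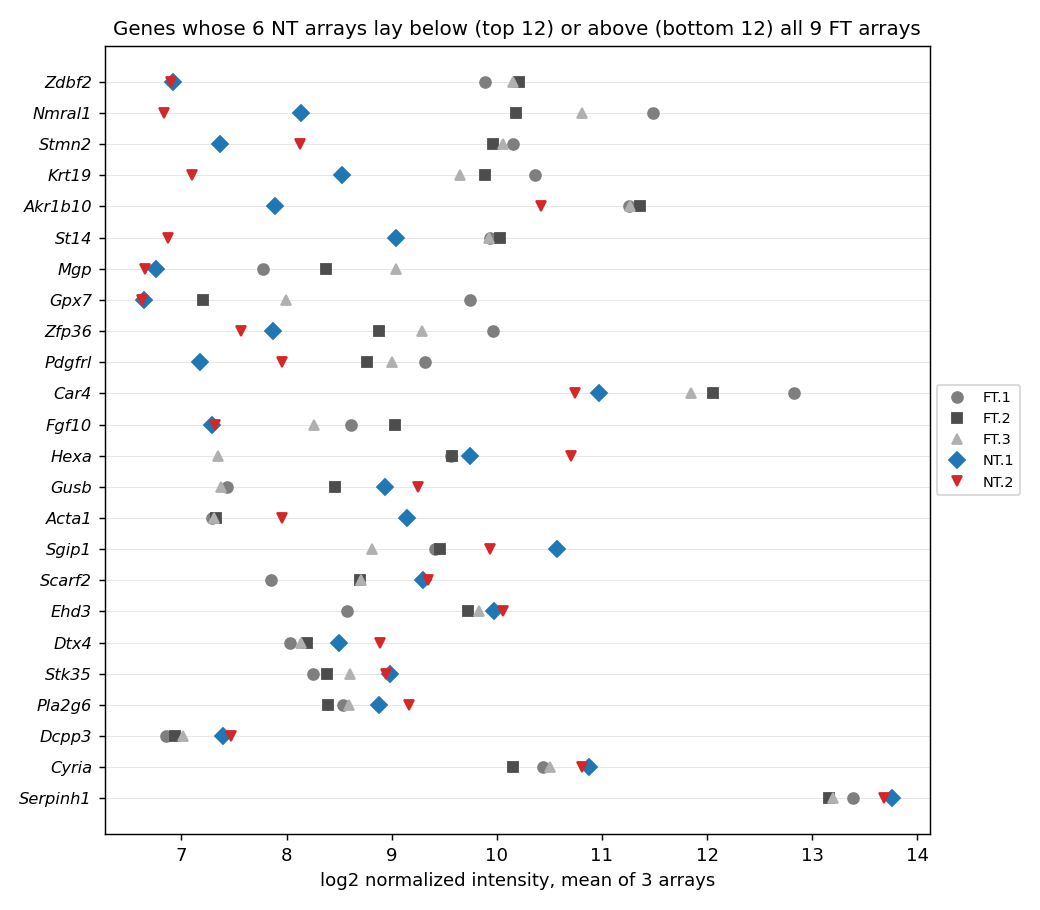
Log2 normalized intensity (horizontal axis, mean of 3 arrays) of the 24 genes named for both NT lines, with 1 symbol for each line. Blue diamonds (NT.1) and red triangles (NT.2) lie left of the grey FT symbols in the upper 12 genes and right of them in the lower 12. Zdbf2 alone passed the test.

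NT.1 against the FT lines gave 12 probes (0.0675%), 7 higher and 5 lower, which belonged to 8 genes and to probes without a gene name. The largest rise, 8 on the log2 scale, was of a probe without a gene name. Bag3, a partner of the chaperone HSP70, read 8.68, 7.82 and 7.69 in NT.1, with FT arrays from 11.73 to 12.71 and NT.2 arrays from 12.30 to 12.46. It fell by 4.29 in NT.1 (SE 0.30, limma adjusted p = 0.03). Akr1b10 read 8.04, 7.91 and 7.72 in NT.1, 10.33, 10.51 and 10.43 in NT.2, and 11.10 to 11.42 in FT. It fell by 3.41 in NT.1 (SE 0.099, limma adjusted p = 0.0017) and by 0.87 in NT.2 (adjusted p = 0.048). Stmn2 fell by 2.69 in NT.1 (SE 0.11, limma adjusted p = 0.0074).

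Gstm5, a glutathione transferase, read 11.19, 11.22 and 11.14 in NT.1 against 7.02 to 7.78 in FT and 7.10 to 7.37 in NT.2. It rose by 3.78 in NT.1 (SE 0.25, limma adjusted p = 0.03). Tsr3, which modifies ribosomal RNA, rose by 2.27 (SE 0.11, adjusted p = 0.009, limma), with NT.1 arrays from 9.95 to 10.24 and FT arrays from 7.62 to 7.98. Another of its probes also passed, but a brighter probe differed by -0.42, so the probes of Tsr3 disagree. Acta1 rose by 1.83 (adjusted p = 0.0099) and Sdr39u1 by 1.47 (adjusted p = 0.03, limma), the latter at least 1.69-fold, since it was above background on no array of another line. Without FT.2 only 2 probes passed for NT.1, and Gstm5, Tsr3, Acta1, Sdr39u1, Akr1b10, Stmn2 and Zdbf2 were not among them. Without FT.1 Bag3, Gstm5, Acta1 and Sdr39u1 did not pass, and without FT.3 27 probes did. Among genes that did not pass, Erdr1 differed by 1.77 and Nmral1 by -2.68.

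NT.2 against the FT lines gave 86 probes (0.484%), 10 higher and 76 lower. When arrays were scaled to a common median instead, the split was 24 higher and 64 lower. The lower probes belonged to 59 genes, counted by any probe, of which 35 had another tested probe and 5 had all their probes past the threshold. On the high side Tomm6, a subunit of the mitochondrial import channel, rose by 2.30 (SE 0.13, limma adjusted p = 0.0045), with NT.2 arrays at 12.58, 12.80 and 12.81 and FT arrays from 10.18 to 10.66. Its other probe, which is brighter, differed by -0.31, so the probes of Tomm6 disagree. Slc4a4, a bicarbonate transporter, rose by 1.35 (adjusted p = 0.02, limma) and its other probe differed by -0.01. Asns, asparagine synthetase, rose by 1.10 (adjusted p = 0.047, limma), and its other 2 probes differed by 0.77 and 0.86 without passing. The Asns call was lost in 10 of 26 alternatives, among them the authors' processed values, normexp background correction and leaving out NT.2 replicate 1 or NT.2 replicate 2. Mef2b rose by 1.15 on the named probe and by 0.96 on another. Its brightest probe differed by -0.003, so the probes of Mef2b disagree. Wdr46 rose by 0.92 and both its probes passed. None of these 5 genes passed without FT.2, when 19 probes were left, all lower. Snurf, Mest, Peg3, Ndn and Zdbf2 passed in each of 25 alternatives. Without FT.3 the count was 351.

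Of 4 keratin genes listed, Krt18 and Krt19 fell in NT.2 and Krt7 and Krt8 did not pass. Krt18, a keratin named after its values were seen, read 10.78, 10.46 and 10.23 in NT.2 and 12.77, 12.55 and 12.29 in NT.1, with FT arrays from 11.94 to 12.26. It fell by 1.66 in NT.2 (SE 0.11, limma adjusted p = 0.0078). Krt19 read 7.33, 7.23 and 6.76 in NT.2, 9.15, 8.13 and 8.29 in NT.1, and 9.33 to 10.66 in FT, and fell by 2.86 in NT.2 (SE 0.27, limma adjusted p = 0.027). These were 2 of 15 adhesion and epithelial genes tested, beside 0.461% of all genes lower in NT.2. Their median difference in NT.2 was -0.38, beside 0.017 over all genes. Krt8, the partner of Krt18, differed by -0.78 (limma adjusted p = 0.053), and Krt7 by -0.42 (adjusted p = 0.27).

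**Figure D3:**
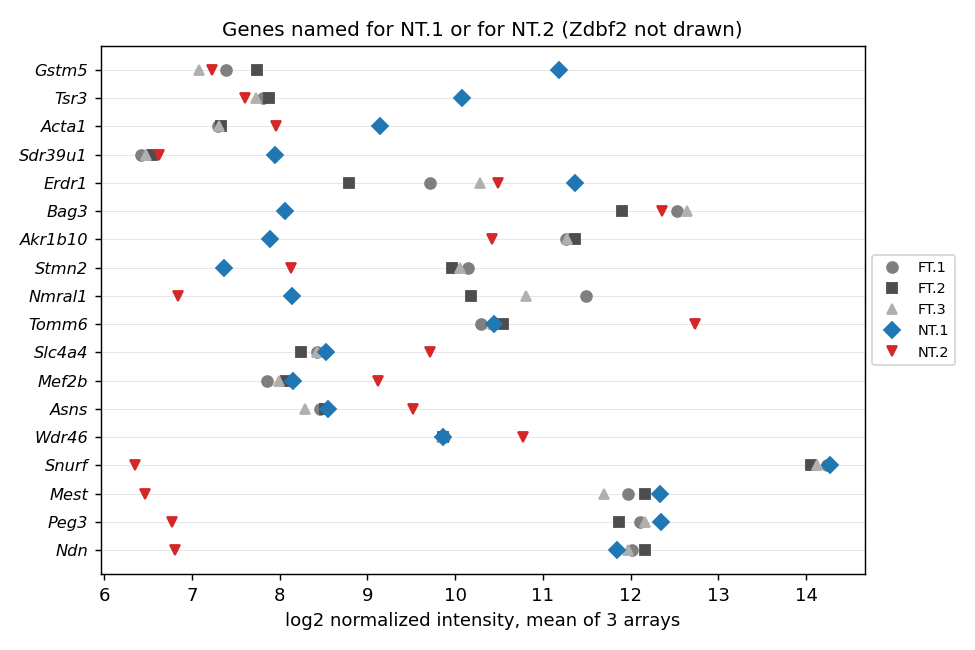
Log2 normalized intensity (horizontal axis, mean of 3 arrays) of genes named for NT.1 or for NT.2, with 1 symbol for each line. The upper 9 genes were named for NT.1 and the lower 9 for NT.2. Gstm5 stands apart in NT.1 at 11.18, and Snurf, Mest, Peg3 and Ndn stand apart in NT.2 below 7.

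The labelled cell type was checked against its markers. Pou5f1 lay between 13.56 and 14.21 on all 15 arrays, Dnmt3b between 14.96 and 15.33, Otx2 between 12.98 and 13.55, Fgf5 between 12.34 and 12.73, Nanog between 11.37 and 12.22 and Sox2 between 8.37 and 9.38. None of 13 core pluripotency genes or 15 primed epiblast genes tested passed in any comparison by the brightest probe of each gene. Of all genes 0.0100% passed over both lines, 0.0701% in NT.1 and 0.491% in NT.2. With so few calls, these counts do not show that the markers are unchanged. Sall4, a pluripotency factor, had another probe that read 10.57, 10.31 and 10.52 in NT.2 against 11.88 to 12.44 in FT and fell by 1.74 (SE 0.15, limma adjusted p = 0.019), while its brightest probe differed by -0.03, so its probes disagree. Of 17 naive genes with a probe, 9 were above background in a line. The array annotation gave no probe for T. Lefty1, a Nodal inhibitor named after its values were seen, read 13.32, 12.78 and 12.59 in NT.2 and 13.61 to 13.83 in the other lines, a difference of -0.83 that did not pass (limma adjusted p = 0.065).

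Markers listed for other cell types were above background in some line to very different extents. Of the genes with a probe these were 1 of 13 for germ cells, 3 of 13 for cumulus cells, 6 of 13 for fibroblasts, 6 of 15 for neural cells, 9 of 16 for mesoderm, 8 of 13 for trophoblast, 11 of 16 for extra-embryonic endoderm and 10 of 12 for definitive endoderm. Of the fibroblast list Col1a1, Col1a2 and Col3a1 were at background, while Acta2, Fn1, Thy1, Dcn, Tagln and Twist2 were not. Acta2 lay between 11.69 and 13.34 on all 15 arrays. In NT.2, beside 0.461% of all genes, 1 of the 8 trophoblast genes was lower (Krt18) and 1 of the 10 definitive endoderm genes (Krt19), and none passed in the other 6 lists. The part of other cell types in the results was not tested.

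**Figure D4:**
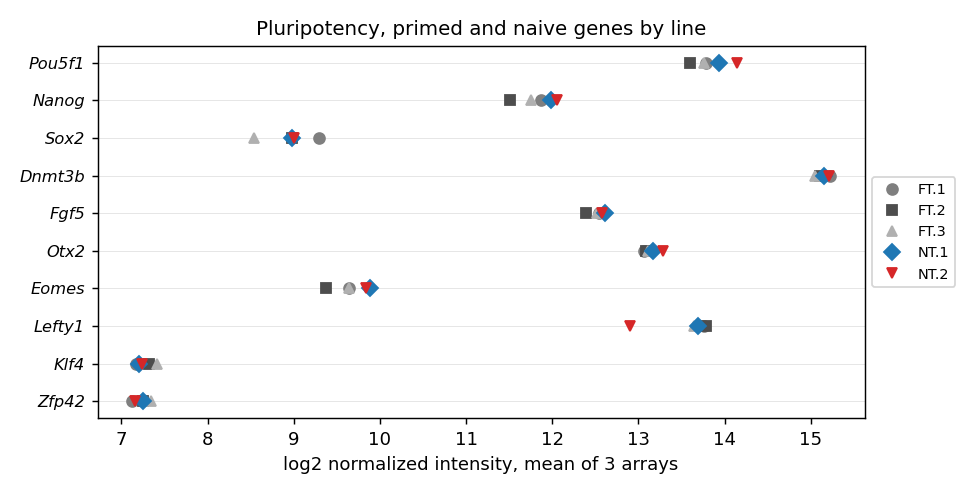
Log2 normalized intensity (horizontal axis, mean of 3 arrays) of pluripotency, primed and naive genes, with 1 symbol for each line. Genes beyond Pou5f1, Nanog, Sox2, Dnmt3b, Fgf5 and Otx2 were chosen after their values were seen. The 5 lines lie close together for Dnmt3b, Otx2 and Fgf5, and NT.2 lies apart for Lefty1.

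The FT lines differed in genes of the sex chromosomes. Xist, the RNA that coats the inactive X chromosome, read 6.47, 6.41 and 6.48 in FT.1, 6.50, 6.40 and 6.45 in FT.2, and 10.62, 10.88 and 11.06 in FT.3. It read 10.74, 10.71 and 11.24 in NT.1 and 11.35, 10.96 and 10.94 in NT.2. Eif2s3y, a gene of the Y chromosome, showed the reverse, with 10.23 to 10.71 in FT.1 and FT.2 and 6.36 to 6.68 in FT.3, NT.1 and NT.2. FT.3 was thus like the NT lines in both genes, and neither passed between origins. In FT.3, Zdbf2 had a mean of 10.15, Snurf of 14.12, Peg3 of 12.16, Mest of 11.69 and Ndn of 11.97, each far above NT.2. FT.3 is a single line, and the part of the sex chromosomes in the results was not tested.

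**Figure D5:**
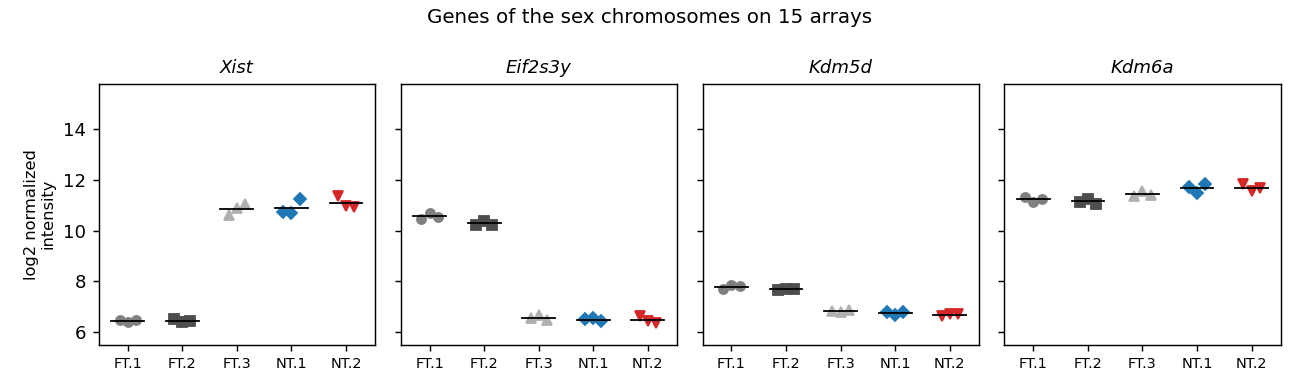
Log2 normalized intensity (vertical axis) of 4 genes of the sex chromosomes on the 15 arrays by line (horizontal axis). Each point is an array and each bar the mean of a line, and Kdm5d and Kdm6a were chosen after their values were seen. Xist is near 11 in FT.3, NT.1 and NT.2 and near 6.5 in FT.1 and FT.2, with the opposite order for Eif2s3y.

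Over all tested probes, the root mean square difference between line means was 0.242 on average from NT.1 to the FT lines, 0.317 from NT.2 to the FT lines, 0.226 between FT lines and 0.295 between the NT lines. NT.1 was nearest to FT.3, at 0.200, which is less than the 0.264 between FT.1 and FT.3. Pairs across origins were 0.0362 farther apart than pairs within origins (0.279 against 0.243, one-sided exact permutation p = 0.1, the smallest that 5 lines allow). The difference turned to -0.00291 without FT.2. Before normalization the NT lines were brighter on average, with a mean log2 intensity of 7.80 ± 0.0246 (SD, n = 2 lines) against 7.68 ± 0.0218 (SD, n = 3 lines). The exact permutation p was 0.1, again the smallest that 5 lines allow. Single arrays overlapped, with 7.633 for NT.1 replicate 3 and 7.825 for FT.3 replicate 2. The part of brightness in the results was not tested. Repeats varied most in FT.3, with a root mean square SD of 0.236, against 0.0936 to 0.166 in the other lines.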

How the data were processed

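RNA of 15 cultures was measured on Illumina bead arrays. The deposited table gives 1 intensity per probe on a linear scale for 45281 probes, with no detection p-values and no record of background subtraction per the file headers. BeadStudio and lumi are named in the submitters' processing notes, without version or role. The authors' processed values, whose scale is not stated, followed log2 intensity with a slope of 1.04 in bright probes and 0.308 in dim ones, with a median of 7.94 on every array. They served as an alternative.

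The log2 intensities were quantile-normalized over the 15 arrays (limma 3.58.1, R 4.3.3). No background was subtracted, so folds of dim probes are understated. A probe was above background where it exceeded the array's mode by 3 times the spread below the mode. This rule stands in for detection p-values, which limma's neqc would have needed. A probe entered the tests where some line had it above background in every repeat, which 17778 did (39.3%). Per array 37.9% to 39.4% of probes were above background. The number of lines limits the precision of the tests.

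limma (lmFit, eBayes) was fitted to 5 line means with Benjamini-Hochberg adjustment over all tested probes and a threshold of 0.05. NT.1 and NT.2 were tested in a fit with 3 groups. Labels call the repeats biological without saying more. For both NT lines together, limma's p-values measure the spread between lines of the same origin. For NT.1 or NT.2 alone, they measure the spread among the FT lines.

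Genes were named from the platform annotation, updated through RefSeq for 34818 of 34885 probes with 1 gene, while 18 had several and 10378 none. A gene in a list stands for its brightest probe. Named genes were the 12 largest differences per direction for both lines and 5 for each line, taken from probes that passed and filled from probes whose arrays did not overlap, besides marker genes named in every case. Members and lists were chosen with earlier results of these data known. The tests were tested on simulated data. Alternatives changed values, background correction, scaling, filter, variance prior, unit of replication and samples. Python 3.11.15 with matplotlib 3.10.9 drew the figures.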

Additional observations from a re-analysis of the deposited data

Results flagged for a closer look

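Among the genes named for NT.1 or for NT.2 by rule, 11 differed between these lines by limma's test of the difference itself. Given as NT.2 minus NT.1 on the log2 scale, Snurf (-7.91), Mest (-5.87), Peg3 (-5.57) and Ndn (-5.03) were lower in NT.2. Gstm5 (-3.95), Tsr3 (-2.48), Sdr39u1 (-1.32) and Acta1 (-1.19) were also lower in NT.2, where the rise was in NT.1. Bag3 (4.3), Akr1b10 (2.53) and Tomm6 (2.28) were higher in NT.2. These values are of the named probes, and brighter probes of Tomm6 and Tsr3 differed by -0.47 and 0.26 without passing. The same test passed for other genes of the text, St14 (-2.17), Mkrn3 (-2.32), Krt18 (-2.05), H2-K1 (-1.72) and another probe of Sall4 (-1.97). These genes had been named from the comparisons of the same lines with FT, so the differences are not independent of that choice. The spread in the test of NT.2 minus NT.1 came from the FT lines alone.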

How the results depend on the processing

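For both NT lines, 1 probe passed as reported. The count was 0 among probes above background on all 15 arrays, a filter that removes Zdbf2, 2 with a trended and robust prior, 215 with line as a random block, 120 with line as a random block and a replicate block, and 3016 with 5 fixed line means. Leaving out an FT line or an array gave 1 to 8. Leaving out an NT line leaves the comparison of the other NT line, given next. For NT.1, with 12 as reported, the authors' processed values gave 7, probes above background on all arrays 6, fixed line means 1065, fixed line means with a replicate block 950, and passing against each FT line 149, with 2 to 27 on leaving out a line or an array. For NT.2, with 86 as reported, these counts were 52, 29, 3404, 3168 and 1001, with 19 to 351. On leaving out a line or an array, the distance across minus within origins ran from -0.00291 without FT.2 (exact permutation p = 0.67) to 0.0508 without FT.3, and with median scaling it was 0.0803. Median scaling moved the median difference of all probes to 0.16 for both lines, 0.12 for NT.1 and 0.2 for NT.2. The cause of these shifts was not tested. Zdbf2 passed in each alternative that tested it with both NT lines, with -4.07 to -2.12 on the log2 scale. Repeats with the same number did not deviate together (median r -0.019, and 4 of 15 arrays correlated best with their own number). The main tests did not pair samples by number, and this check cannot show whether repeats of the same number were handled together.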

Other observations

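The genes given here were chosen after their values were seen, form no list and were not tested as a group. Psmb8, a subunit of the immunoproteasome, read 8.71, 8.98 and 8.96 in NT.2 and 9.85, 9.35 and 9.45 in NT.1, with FT arrays from 10.24 to 10.73. It fell by 1.57 in NT.2 (SE 0.11, limma adjusted p = 0.012), and the difference of -0.90 in NT.1 did not pass (adjusted p = 0.31). H2-K1, a class I molecule that presents peptides, read 6.85, 6.80 and 7.01 in NT.2 and 8.55 to 8.91 in the other lines, and fell by 1.89 in NT.2 (SE 0.099, limma adjusted p = 0.0036), at least 2.98-fold. H2-Q5 fell by 1.19, Irgm2, an interferon-induced GTPase, by 1.16, and Ifi35 by 0.85 in NT.2 (limma adjusted p = 0.02, 0.02 and 0.046). Igtp and Gbp3, also interferon-induced GTPases, differed by -1.01 and -0.98 in NT.2 and did not pass (limma adjusted p = 0.19 and 0.34). In NT.1 too, the arrays of Irgm2, Ifi35, Igtp and Gbp3 all lay below the 9 FT arrays. They read at most 8.82, 7.86, 8.66 and 7.86 in NT.1, against at least 9.09, 7.91, 8.80 and 7.88 in FT. For these genes NT.2 minus NT.1 came to -0.68, -0.62, -0.24 and -0.30 and did not pass. The NT.1 arrays of H2-Q5 overlapped with the FT arrays. The brightest probe of H2-D1 differed by 0.13 in NT.2, although another probe of the gene passed as lower.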
